A study of Mus musculus with 4 samples.

Results

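The olfactory receptor genes described here are 5 neighbours on mouse chromosome 2, Olfr1029, Olfr1030, Olfr1031, Olfr1033 and Olfr1034, out of 32285 genes counted in liver nuclei. They were chosen by symbol because their levels in hepatocyte nuclei of aged and young livers had already been seen to differ in these data, so the age difference is given below as a description, without a test. In these livers the 5 genes formed a pair of neighbouring blocks. Olfr1029, Olfr1030 and Olfr1031 were detected in hepatocyte-like nuclei of aged livers and almost never in young livers, and Olfr1029 and Olfr1030 were lower around the central vein than on the portal side of the lobule. Olfr1033 and Olfr1034, which lie just downstream, were detected at both ages, were lower in aged than in young hepatocyte-like nuclei, and were higher around the central vein. Olfr1033 was the olfactory receptor gene with the most transcripts in hepatocyte-like nuclei, and it was higher still in stellate/fibroblast-like nuclei.

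Olfactory receptors are seven-pass membrane proteins coupled to G proteins. In the nose, each olfactory neuron expresses a single receptor gene, and an odorant bound by the receptor acts through the G protein subunit Gnal, the adenylyl cyclase Adcy3 and a cyclic nucleotide-gated channel built from Cnga2, Cnga4 and Cngb1. The receptor genes make up the largest gene family of the mouse. They lie in clusters along the chromosomes, with a coding sequence that is usually held in a single exon, and are silent in most tissues, although some are transcribed outside the nose.

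The livers, which had been frozen, were from wild type males of C57BL6/J, an inbred laboratory strain. There were 2 libraries from aged mice of 30 months and 2 from young mice of 2 months, and no other treatment or allele was named. Droplet-based single-nucleus RNA sequencing with 3′ end chemistry was used, in which each captured RNA molecule carries a unique molecular identifier (UMI), so counts are of molecules. Whether the replicates of an age were separate animals is not stated in the labels. The p-values measure only the spread between these libraries, which may be technical. In the age contrast this is the spread of levels. In the comparisons of classes and zones within libraries it is the spread of that difference. The deposited tables held 11362 and 14267 barcodes in the aged libraries and 2666 and 14718 in the young libraries. After quality filters 7216 and 11892 nuclei of the aged and 1935 and 12219 nuclei of the young libraries were kept. Hepatocyte-like nuclei, named from marker genes, numbered 5513 and 8380 in the aged and 1452 and 9044 in the young libraries, with 16990992, 33228905, 8282299 and 10177278 UMIs. Their median depth was 2111 and 2986 UMIs in aged replicates 1 and 2, against 3754 and 926 UMIs in young replicates 1 and 2. Between 8 and 67 deposited barcodes were shared by any pair of libraries, and between 1 and 44 among kept nuclei. Hepatocyte-like nuclei of different libraries fell into different clusters, 8 clusters of at least 200 nuclei for the aged and 5 for the young libraries, none of which held that many nuclei of more than 1 library. Levels are given as CPM, the UMIs of a gene per 1000000 UMIs summed over the nuclei of a class in a library, without further scaling. In sums over nuclei, fewer expressing nuclei and fewer transcripts per nucleus cannot be told apart.

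All 5 genes are protein coding and lie on the plus strand of the mm10 genome, within 76848 bases. In GENCODE vM21 the first block is Olfr1029 at chr2:85973895-85978913, Olfr1030 at chr2:85979276-85988294 and Olfr1031 at chr2:85990304-85993704. The second block is Olfr1033 at chr2:86020633-86045171 and Olfr1034 at chr2:86045861-86050742. The gaps within the blocks are 362 bases between Olfr1029 and Olfr1030, 2009 bases between Olfr1030 and Olfr1031, and 689 bases between Olfr1033 and Olfr1034. A gap of 26928 bases separates the blocks and holds Olfr1032. The coding sequences are 933 to 1011 bases long.

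The members are paralogs rather than copies. Aligned pairwise, their coding sequences were 62.5% identical at the lowest (Olfr1029 and Olfr1033) and 74.8% at the highest (Olfr1033 and Olfr1034), and no pair shared a run of more than 26 identical bases. Some members are closer to receptor genes outside the set. The coding sequence of Olfr1029 shares an identical run of 472 bases with Olfr1028, that of Olfr1034 one of 143 bases with Olfr1036, and that of Olfr1033 one of 119 bases with Olfr1032. Reads from such runs could be assigned to either gene or dropped, and how the counting treated them is not given in the sources used here, so the levels of Olfr1029, Olfr1033 and Olfr1034 are uncertain to that extent. Those 3 close relatives themselves had 0, 2 and 2 UMIs in hepatocyte-like nuclei (Olfr1028, Olfr1036 and Olfr1032). Olfr1034 also overlaps an annotated pseudogene on the minus strand, Olfr1035-ps1, and strand use in the counting is likewise not given.

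The stretch ahead of Olfr1030 covers part of the short gap behind Olfr1029, while its last bases lie inside the GENCODE gene Olfr1030, and it is shown because these neighbouring genes had the same pattern across libraries and zones. The 250 bases upstream of the RefSeq start of Olfr1030 (GRCm38.p6, plus strand) are given with the TAATTA motif, a core of homeodomain binding sites, in capitals.
Olfr1030 upstream (chr2:85979062-85979311): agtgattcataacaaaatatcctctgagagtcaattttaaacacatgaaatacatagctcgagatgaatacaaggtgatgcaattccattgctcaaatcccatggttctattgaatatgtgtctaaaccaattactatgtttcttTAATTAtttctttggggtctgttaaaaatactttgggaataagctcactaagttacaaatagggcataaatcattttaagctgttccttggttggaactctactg
On both strands, TAATTA occurred in 5.29% of 32851 promoters and in 18.6% of 948 olfactory receptor promoters in the RefSeq table. Those promoters were searched over a longer stretch that also takes in bases past the start. The shares are therefore not for a window of the printed length. The other motifs searched in the Olfr1030 window, the Ebf and Hnf1 palindromes, TATAAA (a core promoter motif), CAAAGTCCA (Hnf4a) and TTGCGCAA (Cebp), were not in these letters. Of the members, Olfr1031 and Olfr1034 are also listed in that table, but their windows lie wholly inside the GENCODE genes and they are not shown. Olfr1029 and Olfr1033 are not listed in it.

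In hepatocyte-like nuclei the 3 genes of the first block were high in aged and near 0 in young livers. Olfr1029 had 16.7 and 21.5 CPM (284 and 713 UMIs) in the aged libraries, against 0.121 and 0.393 CPM (1 and 4 UMIs) in the young libraries. Olfr1030 had 18.5 and 17.1 CPM (314 and 568 UMIs) in the aged and 0.362 and 0.491 CPM (3 and 5 UMIs) in the young libraries. For either gene the aged and young values were far apart, with a mean ± SD of 19.1 ± 3.39 CPM in aged and 0.257 ± 0.192 CPM in young nuclei for Olfr1029 and of 17.8 ± 0.99 CPM in aged and 0.426 ± 0.0912 CPM in young nuclei for Olfr1030 (n = 2 each). Olfr1031 was the weakest member, at 1.41 and 0.873 CPM (24 and 29 UMIs) in the aged libraries and 0 UMIs in both young libraries. The ratios of the means were 74.3 for Olfr1029 and 41.7 for Olfr1030, resting on 5 and 8 UMIs in young nuclei. For Olfr1031, set against a floor of 3 counts over the young group, aged nuclei were at least 6.49-fold higher. Intervals and floors here cover counting error only.

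The second block had the opposite order of ages and a much smaller difference. Olfr1033 had 113 and 67.6 CPM (1916 and 2247 UMIs) in aged and 166 and 150 CPM (1377 and 1522 UMIs) in young hepatocyte-like nuclei. Olfr1034 had 10.6 and 4.88 CPM (180 and 162 UMIs) in aged and 13.5 and 13.9 CPM (112 and 141 UMIs) in young nuclei. The aged libraries lay below the young libraries for both genes, at 57.2% and 56.5% of the young mean, and differed from each other by more than the young libraries did. Per kb of annotated gene body, Olfr1029 had 3.33 and 4.28, Olfr1030 2.05 and 1.90, Olfr1033 4.60 and 2.75, and Olfr1034 2.17 and 1.00 CPM per kb in the aged libraries. This scale assumes that counts grow with gene length, which 3′ end counts need not do. In the young libraries the level of Olfr1033 was 6.76 and 6.11 CPM per kb, against 0.0241 and 0.0783 CPM per kb for Olfr1029.

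The members were chosen on this contrast, and the fit across all genes is given as its background only. edgeR's quasi-likelihood test called 5 of 15405 genes (0.0325%) at an adjusted p under 0.05, and nothing is read from it about the members. Log2 fold changes were 6.19 (SE 0.58) for Olfr1029, 5.41 (SE 0.50) for Olfr1030, -0.77 (SE 0.37) for Olfr1033 and -0.78 (SE 0.47) for Olfr1034. In all edgeR fits here, SE is the size of the log2 fold change divided by the square root of its F statistic. It thus restates that statistic, and for the members in this contrast it is a description only. The values of the first block moved with the setting, to 7.20 for Olfr1029 without young replicate 2 and to 6.43 for Olfr1030 in nuclei with at least 1000 UMIs. As a further background, 26% of all tested genes had both aged values above both young values in TMM-scaled CPM, and 26.4% had both below. Since no cluster held both ages in number, ages could not be compared within a cluster, and the spread over clusters is given instead. Across the 8 clusters from the aged libraries Olfr1029 ranged between 7.29 and 27.7 CPM and Olfr1030 between 4.86 and 26.8 CPM, against 0 to 0.811 CPM for either gene across the 5 clusters from the young libraries. The ranges of Olfr1033 overlapped, at 34.5 to 147 CPM in the aged and 97.3 to 237 CPM in the young clusters.

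**Figure D1:**
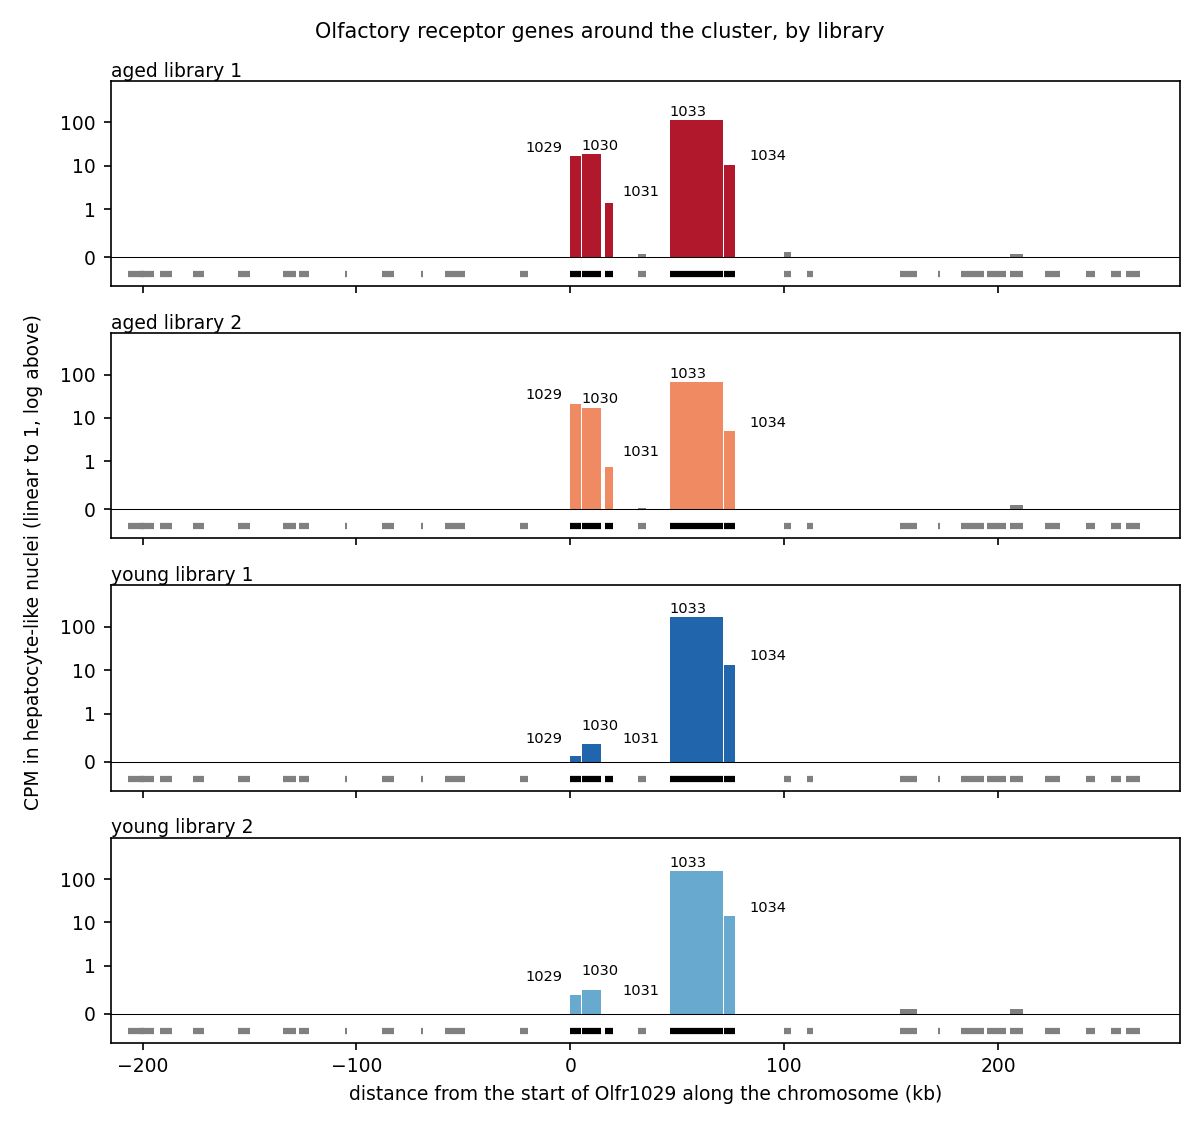
CPM of each olfactory receptor gene within 200 kb of the members in hepatocyte-like nuclei (vertical axis, linear up to 1 and logarithmic above) against distance from the start of Olfr1029 in kb, one panel per library. Coloured bars are the 5 members, labelled by number, grey bars the other receptor genes, and the strips below 0 mark gene bodies; Olfr1029 and Olfr1030 stand near 20 CPM in the aged libraries and under 1 CPM in the young libraries, while Olfr1033 is high in all 4.

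Transcripts of the cluster were sparse, and most nuclei with one had a single UMI. A UMI of Olfr1029, Olfr1030 or Olfr1031 was found in 9.09% (exact binomial 95% interval 8.34 to 9.88) and 12.2% (11.5 to 12.9) of hepatocyte-like nuclei of the aged libraries, against 0.275% (0.0751 to 0.704) and 0.0995% (0.0455 to 0.189) in the young libraries. After every nucleus was thinned to 500 UMIs, the shares were 1.69% and 1.88% in aged and 0.108% and 0.0491% in young nuclei, in the same order. For Olfr1033 and Olfr1034 together the shares were 25.1% and 19.8% of aged and 47.6% and 15.3% of young nuclei, in which the shallow second young library was lowest. Thinned to 500 UMIs they were 5.27% and 3.18% in aged and 8.42% and 7.42% in young nuclei, the order that the CPM also had. The largest number of Olfr1033 UMIs in one nucleus was 8 in each aged library and 13 and 4 in the young libraries.

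Hepatocytes change their programme along the lobule, between periportal cells near the inflowing blood and pericentral cells around the central vein. Within each library, hepatocyte-like nuclei were ordered by a score, the mean of 12 known pericentral genes less that of 12 known periportal genes, and the top and the bottom of 3 equal parts were summed as pericentral and periportal. The members are not among the landmarks, and olfactory receptor genes were kept out of the clustering. Olfr1029 had 9.10 and 11.6 CPM in pericentral and 21.7 and 26.0 CPM in periportal nuclei of the aged libraries. Olfr1030 had 9.78 and 8.57 CPM in pericentral and 27.6 and 23.0 CPM in periportal nuclei. Both genes were thus lower towards the central vein in both aged libraries. In the middle part Olfr1029 had 19.4 and 27.4 CPM and Olfr1030 17.1 and 19.9 CPM, so that Olfr1029 in aged replicate 2 was no lower there than on the portal side. Olfr1031, with 5 and 3 UMIs in pericentral and 15 and 16 UMIs in periportal nuclei, was too sparse for the filter on low counts.

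The second block ran the other way. Olfr1033 had 157 and 111 CPM in pericentral and 76.6 and 32.5 CPM in periportal nuclei of the aged libraries, and Olfr1034 had 16.3 and 7.43 CPM in pericentral and 6.02 and 2.26 CPM in periportal nuclei. In young livers, Olfr1033 had 242 and 213 CPM in pericentral and 90.0 and 95 CPM in periportal nuclei, and Olfr1034 had 18.3 and 19.7 CPM in pericentral and 8.68 and 9.36 CPM in periportal nuclei. The pericentral side was higher in all 4 libraries for both genes, by 2.05 to 3.42 times for Olfr1033 and by 2.10 to 3.29 times for Olfr1034.

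With the library as a block, edgeR's quasi-likelihood test on the aged libraries called all 4 members that passed the filter, in a comparison where 18.1% of 13796 genes were called, 9.31% as higher and 8.77% as lower on the pericentral side. Pericentral over periportal, log2 fold changes were -1.20 (SE 0.17, adjusted p = 0.000575) for Olfr1029 and -1.45 (SE 0.16, adjusted p = 7.25e-05) for Olfr1030. They were 1.40 (SE 0.15, adjusted p = 6.46e-05) for Olfr1033 and 1.56 (SE 0.22, adjusted p = 0.000364) for Olfr1034. In the young libraries, where 8.46% of genes were called, Olfr1033 was higher on the pericentral side by 1.29 (SE 0.16, adjusted p = 0.000458) and Olfr1034 by 1.07 (SE 0.24, adjusted p = 0.0183). With DESeq2 the call of Olfr1029 was lost (adjusted p = 0.0568), and without the library block all 4 were lost (adjusted p 0.122 to 0.571). Pericentral nuclei of the aged libraries had a median depth of 2258 and 2899 UMIs and periportal nuclei one of 2777 and 3556 UMIs, and the part of depth in these differences was not tested.

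**Figure D2:**
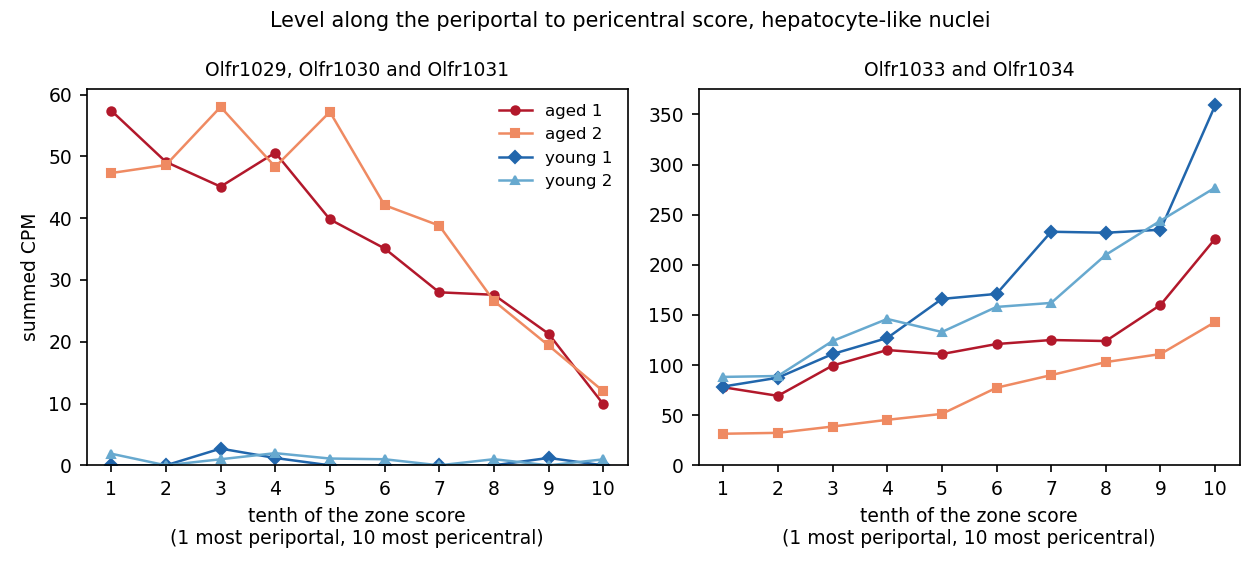
Summed CPM of the first block (left) and the second block (right) in 10 equal parts of hepatocyte-like nuclei ordered by zone score, from most periportal (1) to most pericentral (10), one line per library. In the aged libraries the first block stands at 57.4 and 47.3 CPM in the most periportal and 9.92 and 12 CPM in the most pericentral part, while the second block is highest in the most pericentral part of all 4 libraries.

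Over 10 equal parts of the score, the aged libraries differed in shape for the first block. In aged replicate 1 the summed level was highest in the most periportal part, at 57.4 CPM, and in aged replicate 2 it stayed between 47.3 and 58.0 CPM over the 5 parts nearest the portal side. In both it was lowest in the most pericentral part, at 9.92 and 12 CPM. The second block had its highest value there, at 226 and 143 CPM in the aged and 359 and 277 CPM in the young libraries, against 77.9 and 31.5 CPM in the aged and 78.6 and 88.2 CPM in the young libraries in the most periportal part.

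Olfr1033 and the first block also had different orders of levels over classes of nuclei. Among classes with at least 200 nuclei in every aged library, Olfr1033 was highest in stellate/fibroblast-like nuclei, the perisinusoidal cells that store vitamin A and their relatives, with 309 and 315 CPM (111 and 472 UMIs) in the aged and 354 and 226 CPM (261 and 484 UMIs) in the young libraries. In endothelial-like nuclei it had 31.0 and 60.8 CPM in the aged and 31.3 and 111 CPM in the young libraries, and in macrophage-like nuclei 42.1 and 34.5 CPM in the aged and 117 and 83.2 CPM in the young libraries. All 4 libraries thus had the order stellate/fibroblast-like above hepatocyte-like above endothelial-like and macrophage-like nuclei. The aged and young values overlapped in the stellate/fibroblast-like class, unlike in hepatocyte-like nuclei. Olfr1034 had 13.9 and 13.4 CPM in aged and 10.8 and 14.0 CPM in young stellate/fibroblast-like nuclei, from 5, 20, 8 and 30 UMIs. In hepatocyte-like nuclei it had 10.6 and 4.88 CPM in the aged and 13.5 and 13.9 CPM in the young libraries. In the young libraries Olfr1034 thus did not share the order of Olfr1033 between these classes. Mesothelial-like nuclei, which line the liver surface, gave 148 CPM of Olfr1033 in aged replicate 2 (26 UMIs) and 191 and 349 CPM in the young libraries (8 and 26 UMIs), above the stellate/fibroblast-like value in young replicate 2.

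The 3 genes of the first block together had 36.6 and 39.4 CPM in hepatocyte-like nuclei of the aged libraries, against 5.56 and 17.4 CPM (2 and 26 UMIs) in stellate/fibroblast-like nuclei. In the young libraries stellate/fibroblast-like nuclei held 3 and 7 UMIs of the block. In the aged libraries, endothelial-like nuclei had 11.3 and 32.1 CPM, macrophage-like nuclei 19.4 and 28.8 CPM, T/NK-like nuclei 27.8 and 24.4 CPM and B-like nuclei 34.8 and 60.3 CPM, from 4 to 96 UMIs each. In aged replicate 2 the B-like value was thus above the hepatocyte-like value, on 19 UMIs.

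RNA that floats free in the suspension enters all droplets, and the same nuclei hold transcripts of hepatocytes. In other named nuclei, 12 transcripts abundant in hepatocyte nuclei, among them Alb, Apob and Cps1, were summed. Their sum stood at 54.1% and 71.9% of the hepatocyte-like level in the aged and 79.3% and 74.5% in the young libraries. Single transcripts lay between 42.4% and 77.9% in aged replicate 1 and between 64.7% and 84.4% in aged replicate 2. In young replicates 1 and 2 they lay between 66.2% and 111% and between 56.5% and 86.7%. On the same scale the first block stood at 52.9% and 70.4% in other nuclei of the aged libraries, close to these transcripts in the pool. The classes of this pool differed. In B-like nuclei of the aged libraries the first block stood at 95.1% and 153% (13 and 19 UMIs), above the 12 transcripts at 57.8% and 87.3%. In endothelial-like nuclei it stood at 30.8% and 81.4% (4 and 96 UMIs), beside 53.0% and 81.1% for the 12 transcripts. In stellate/fibroblast-like nuclei the 12 transcripts stood at 34.3% and 50.8% and the first block at 15.2% and 44.0% in the aged libraries, while Olfr1033 stood at 274% and 466% there and at 213% and 151% in the young libraries. The part of free RNA in the first block's levels outside hepatocytes was not tested.

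A fit with the library as a block compared hepatocyte-like with all other named nuclei of the aged libraries. edgeR's quasi-likelihood test called 2 of the 4 members that passed the filter, where 46.7% of 16685 genes were called. Olfr1029 was higher in hepatocyte-like nuclei by 1.04 on the log2 scale (SE 0.29, adjusted p = 0.00206) and Olfr1030 by 1.11 (SE 0.31, adjusted p = 0.00181). Olfr1033 differed by 0.15 (SE 0.23, adjusted p = 0.621) and Olfr1034 by 0.63 (SE 0.32, adjusted p = 0.102). In aged replicate 1 Olfr1033 had 113 CPM in hepatocyte-like and 93.1 CPM in other nuclei, and in aged replicate 2 it had 67.6 CPM in hepatocyte-like and 114 CPM in other nuclei. The difference was accordingly -0.48 without aged replicate 1 and 0.82 without aged replicate 2. Each of these rests on 1 aged library, so no p is given. The calls of Olfr1029 and Olfr1030 were lost with DESeq2 (adjusted p 0.0898 and 0.0815), with plain library totals, without doublet removal and without the library block. They were also lost against endothelial-like nuclei alone (adjusted p 0.286 and 0.63). The difference of Olfr1030 was 0.64 without aged replicate 1 and 1.83 without aged replicate 2. The call of Olfr1029 was also lost at no fewer than 1000 UMIs a nucleus (adjusted p = 0.0741) and at 1% mitochondrial UMIs or less (adjusted p = 0.0776). TMM scaling and plain totals put the median gene at 0.209 and -0.194 in this comparison, with 4013 genes higher and 3773 lower under TMM and 1681 higher and 4791 lower under plain totals.

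Against stellate/fibroblast-like nuclei alone, a comparison added after the data were seen in which 41.6% of 15484 genes were called, Olfr1033 was lower in hepatocyte-like nuclei of the aged libraries by 1.75 on the log2 scale (log2 fold change -1.75, SE 0.26, adjusted p = 2.81e-05). Olfr1030 was higher by 2.33 (SE 0.58, adjusted p = 0.00338) and Olfr1029 by 1.23 (SE 0.45, adjusted p = 0.039), and Olfr1034 had a log2 fold change of -1.01 (SE 0.41, adjusted p = 0.0566). Stellate/fibroblast-like nuclei of aged replicates 1 and 2 held only 0 and 7 UMIs of Olfr1030 and 1 and 17 UMIs of Olfr1029. In the young libraries the log2 fold change of Olfr1033 was -0.71 (SE 0.24, adjusted p = 0.0757), with 11.5% of genes called. A further fit used other nuclei with under 50% of the hepatocyte level of the 12 transcripts, where edgeR called 41.9% of 16028 genes. Olfr1029 was higher in hepatocyte-like nuclei by 2.97 (SE 0.56, adjusted p = 0.00152) and Olfr1030 by 1.85 (SE 0.44, adjusted p = 0.007). Choosing nuclei low in hepatocyte transcripts itself lowers any transcript carried in by free RNA. These calls therefore do not separate expression in hepatocytes from free RNA.

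**Figure D3:**
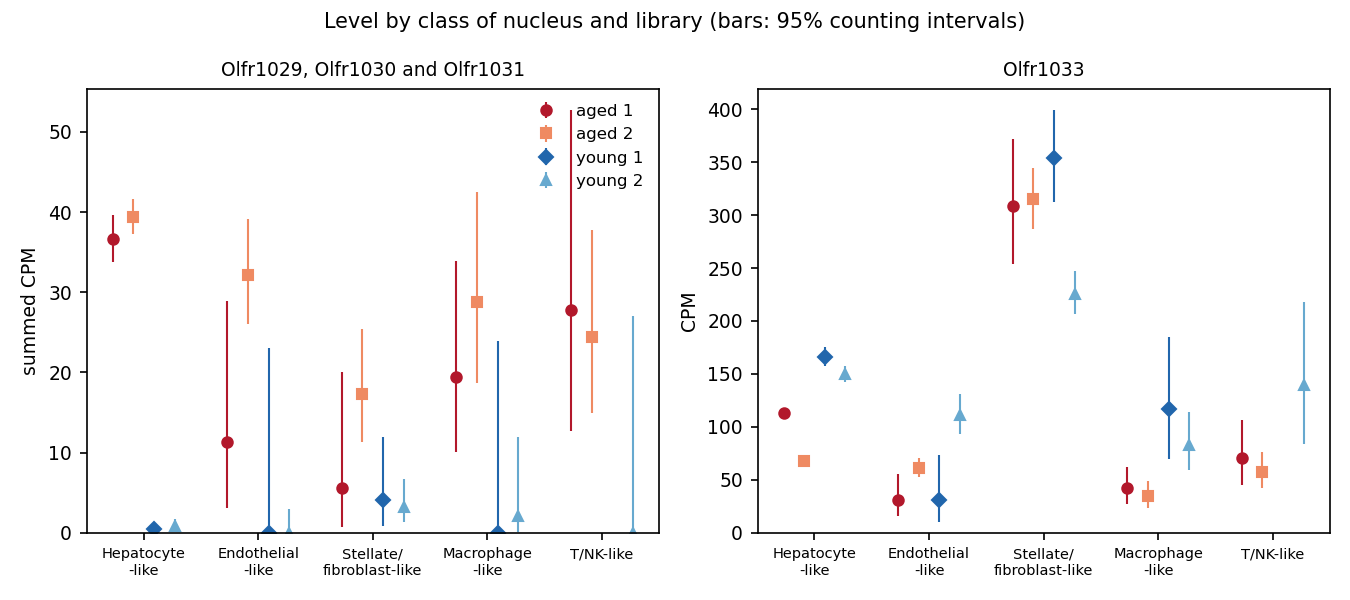
Summed CPM of Olfr1029, Olfr1030 and Olfr1031 (left) and CPM of Olfr1033 (right) in 5 classes of nuclei, one point per library, with bars for exact Poisson 95% counting intervals; classes with under 20 nuclei in a library are left out. Of these 5 classes, stellate/fibroblast-like nuclei have the most Olfr1033 in every library, at 309 and 315 CPM in the aged and 354 and 226 CPM in the young libraries.

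Olfr1029 and Olfr1030 were found in the same nucleus more often than the depth of the nuclei alone gave. In aged replicate 1, 44 hepatocyte-like nuclei held UMIs of both Olfr1029 and Olfr1030, against 12.8 expected if every nucleus were equally likely to show each gene and 23.9 expected when detection was weighted by the depth of each nucleus. In aged replicate 2 it was 115 nuclei, against 37.0 and 63.0 expected. The depth-weighted ratios of observed to expected were 1.84 and 1.83, and 1.69 and 1.74 when expected numbers were also formed within 3 parts of the zone score. Each gene alone also had more nuclei with 2 or more UMIs than depth gave. In aged replicates 1 and 2 these were 27 and 76 against 13.1 and 47.2 expected for Olfr1029. For Olfr1030 they were 32 and 55 against 15.8 and 31.0 expected. The part of this in the pair ratios was not tested. Olfr1030 and Olfr1031 occurred together in 9 and 11 nuclei of the aged libraries, against 2.33 and 2.97 expected by depth. That is 37.5% and 39.3% of the nuclei with Olfr1031 and 3.24% and 2.19% of those with Olfr1030. Olfr1029 and Olfr1031 occurred together in 3 nuclei of each aged library, against 2.13 and 3.61 expected by depth. Olfr1031 shared 9 and 3 nuclei with Olfr1033 of the second block, against 9.67 and 8.65 expected by depth.

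In the second block, Olfr1033 and Olfr1034 shared 89 and 72 nuclei in the aged and 69 and 42 nuclei in the young libraries. The depth-weighted ratios were 1.34 and 1.51 in the aged and 1.06 and 1.65 in the young libraries. Within 3 parts of the zone score they were 1.23 and 1.26 in the aged and 1.02 and 1.54 in the young libraries. Between the blocks, 195 and 249 nuclei of the aged libraries held UMIs of both, against 205 and 315 expected by depth. Those ratios of 0.952 and 0.791 became 1.03 and 0.915 within 3 parts of the zone score. These ratios lie on either side of 1. Single pairs across the blocks varied as well. Olfr1029 with Olfr1034 had depth-weighted ratios of 1.24 and 0.958 in the aged libraries, and 1.42 and 1.08 within parts of the zone score. Olfr1030 with Olfr1034 had 0.878 and 0.798, then 1.03 and 0.932. The numbers expected come from the same nuclei and are a description, without a test. In all, 30.7% and 29.1% of hepatocyte-like nuclei in the aged and 47.7% and 15.4% in the young libraries held a UMI of at least 1 member, none held all 5, and 3 and 4 nuclei of the aged libraries held 4 of them.

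**Figure D4:**
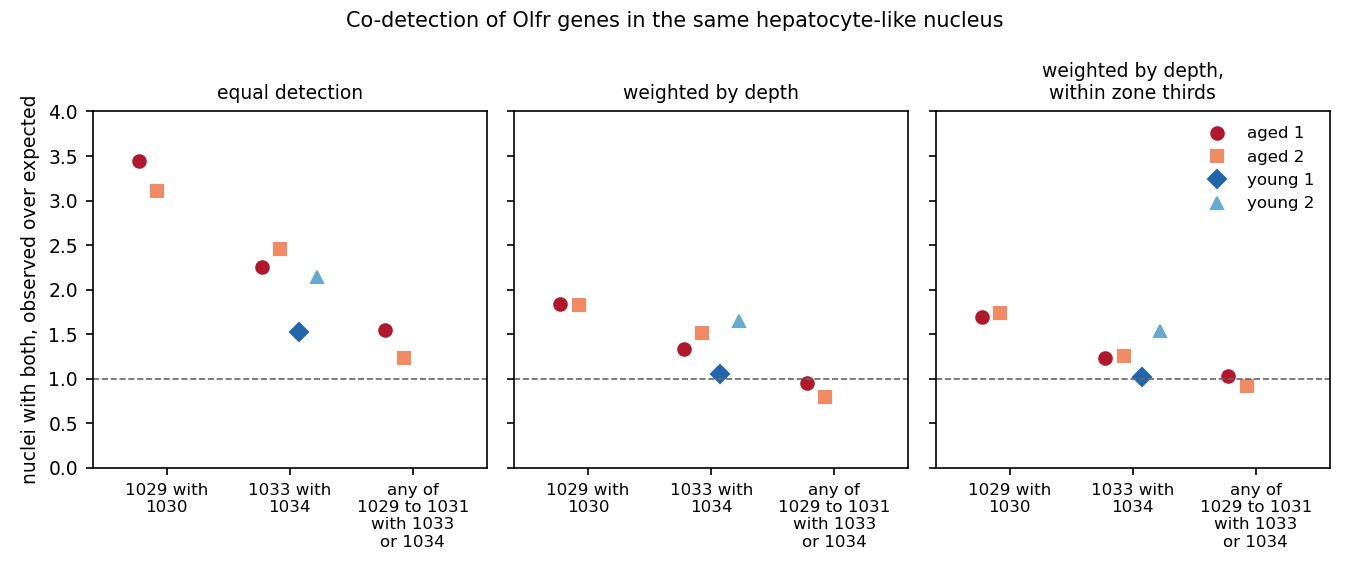
Number of hepatocyte-like nuclei with UMIs of both genes or blocks, divided by the number expected, for equal detection in every nucleus (left), detection weighted by depth (middle) and by depth within 3 parts of the zone score (right), one point per library. Ratios are given where at least 3 nuclei were expected, the dashed line is a ratio of 1, and Olfr1029 with Olfr1030 stands at 1.84 and 1.83 after weighting by depth in the aged libraries, above the pair of blocks at 0.952 and 0.791.

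Around the members, transcripts were almost absent. Of the 26 other olfactory receptor genes within 200 kb, 22 had no UMI in hepatocyte-like nuclei, and the rest held 10 UMIs in all, 2 of Olfr1032, 2 of Olfr1036, 1 of Olfr1039 and 5 of Olfr52. Olfr1032 lies between the blocks, with 1 UMI in each aged library and 0 in the young libraries. The nearest protein-coding genes that are not olfactory receptors are 4833423E24Rik, 454.9 kb to the left with 6 UMIs, and Gm13723, 818.3 kb to the right with 0 UMIs. Both flanks of the cluster were thus at or near 0.

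Among all 1135 olfactory receptor genes counted, 389 had a UMI in hepatocyte-like nuclei and 47 had at least 20. The 5 members held 9602 of the family's 18524 UMIs (51.8%), and Olfr1033, which ranked highest of all, held 73.5% of those of the members. The other receptors with the most UMIs were Olfr695, Olfr698, Olfr45 and Olfr541 on chromosome 7 and Olfr1124 on chromosome 2. Olfr695 had 98.8 and 36.7 CPM in aged and 0 and 0.393 CPM in young hepatocyte-like nuclei, and Olfr698 had 20.3 and 9.78 CPM in aged and 0.121 and 0 CPM in young nuclei, the same order of ages as the first block. Olfr1124 had 3.24 and 4.82 CPM in aged and 5.07 and 4.81 CPM in young nuclei.

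Receptors that have been reported outside the nose in other work were scarce here. Of 12 such genes, 7 had a UMI in hepatocyte-like nuclei, led by Olfr16 with 69, Olfr15 with 49 and Olfr90 with 44 UMIs over the 4 libraries. Olfr16 had 1.65 and 0.933 CPM in aged and 1.09 and 0.0983 CPM in young nuclei. Olfr78, a receptor known from kidney and blood vessels in the mouse, and Olfr734 had none. Only Olfr16 passed the filter in the age contrast, with a log2 fold change of 1.16 (SE 0.99, edgeR adjusted p = 0.559).

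Markers of olfactory neurons ranged from no UMI to a few CPM. Of 8 markers of olfactory neurons, Cnga2, Cnga4 and Rtp1 had no UMI in hepatocyte-like nuclei, Gng13 had 1, Omp 4, Stoml3 23, Ano2 102 and Gnal 270 UMIs over the 4 libraries. Gnal, the G protein subunit that olfactory receptors act through, had 3.35 and 4.88 CPM in aged and 1.93 and 3.44 CPM in young nuclei. Adcy3, the cyclase downstream of it, had 7.30 and 4.88 CPM in aged and 1.45 and 3.54 CPM in young nuclei, a log2 fold change of 1.36 with an edgeR adjusted p of 0.254.

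Of 35 genes of olfactory transduction and receptor choice, 32 had a UMI and 22 were tested in the age contrast. None passed edgeR's threshold, and 8 had an unadjusted p under 0.05, as had 2986 of all 15405 genes. DESeq2 called 2 of 21 (Ncam2 higher and Arrb2 lower in aged), and 848 of all 14807 genes. In the edgeR fit the median log2 fold change of the 22 genes was -0.39, beside -0.022 over all tested genes. Ncam2, an adhesion molecule of olfactory axons, led the list in UMIs with 314 and 538 CPM in aged and 122 and 151 CPM in young nuclei (log2 fold change 1.69, edgeR adjusted p = 0.144). The chromatin factor Bptf and the G protein subunit Gnas followed, with log2 fold changes of 0.32 for Bptf (edgeR adjusted p = 0.598) and -0.22 for Gnas (edgeR adjusted p = 0.783).

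Between zones of the aged libraries, 19 genes of that list were tested, 0 were higher and 4 lower on the pericentral side by edgeR, with a median log2 fold change of -0.16 beside -0.008 over all genes. These were Ncam2 with -2.66 (SE 0.10, adjusted p = 2.42e-08), the receptor kinase Grk3 with -2.90 (SE 0.21, adjusted p = 2.94e-06), the phosphodiesterase Pde4a with -1.74 (SE 0.29, adjusted p = 0.00144) and the transcription factor Atf5 with -0.80 (SE 0.17, adjusted p = 0.00589), all in the direction of the first block. With DESeq2 the call of Atf5 was lost (adjusted p = 0.067). The share called, 4 of 19, was near the 18.1% of all genes. Between hepatocyte-like and other nuclei of the aged libraries 23 were tested, and edgeR called 2 as higher (Ncam2 and Atf5) and 13 as lower. Of all 16685 genes it called 46.7%, 4013 as higher and 3773 as lower. DESeq2 called 1 of the list as higher and 11 as lower, without Atf5, and 32.8% of all genes. By edgeR the median of the list was -0.94 beside 0.209 over all genes, in a comparison whose split moves with the scaling.

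Genes whose level followed the members most closely were sought by correlation, as a description. Over nuclei of the aged libraries the first block was most like Cps1, the first enzyme of the urea cycle, with r of 0.103 and 0.0993, then Ncam2, Naaladl2, Slc7a2 and Alcam, with r no higher than 0.103. These values are weak and rest on sparse counts from nuclei that share library and depth. The second block was most like Tenm3, the hydroxysteroid dehydrogenase Akr1c6, Tox, the pericentral cytochrome Cyp2e1 and Esrrg, with r between 0.18 and 0.23. Cps1 and Cyp2e1 are themselves landmarks of the zone score, so their likeness is not separate from the zone difference above. Over 28 sums by library and class the first block was most like R3hdml (r = 0.917), Cdh19 (0.911), Afp (0.895), 1700023H06Rik (0.889) and Olfr695 (0.882). The second block was most like Mmp23 (0.824), the prion protein gene Prnp (0.802), Pdzrn3 (0.775), the collagen gene Col5a1 (0.761) and Klhdc8b (0.759). The sums share libraries and free RNA, and no p is given. They take in both ages, so r also carries the age difference by which the members were chosen. For all 5 members together, which Olfr1033 dominates, the closest genes were Mcc, Cyp2e1, Akr1c6, Slco1b2 and Slc16a10 over nuclei and Prnp, Mmp23, Pdzrn3, Col5a1 and Gpc6 over sums.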

How the data were processed

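The authors deposited, for each library, raw UMI counts of every gene in every barcode. Cell Ranger 7.1.0 and the mm10 build are named in the submitters' processing notes; the annotation release and the treatment of intronic reads were not found in the labels or file headers. The members, gene lists and comparisons were chosen with earlier results of these data known. Barcodes with at least 500 UMIs, 300 genes and at most 5% mitochondrial UMIs were kept, and the highest Scrublet scores were removed at 0.8% per 1000 barcodes. Leiden clusters (scanpy 1.11.5, 2000 variable genes without olfactory receptors, 30 components) were named here from marker genes, not by the authors, and 1 mixed cluster of 698 nuclei stayed unnamed. Sums of raw counts by library, and by class or zone, were tested with edgeR 4.0.16 (R 4.3.3: filterByExpr, TMM, quasi-likelihood F test, Benjamini-Hochberg). Age was fitted over 4 libraries, class and zone with the library as a block and an effect per age. The tests were tested on simulated data. Positions came from GENCODE vM21 (99.61% of 32285 identifiers matched). Named genes were the members, receptor genes within 200 kb, the nearest other gene on each side, the 5 other receptors with most UMIs, the 5 most alike genes, and of each list those called and the 3 with most UMIs. DESeq2 1.42.0, other filters, scalings and left-out libraries served as alternatives.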

Additional observations from a re-analysis of the deposited data

Results flagged for a closer look

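Barcodes removed for having over 5% mitochondrial UMIs, which entered no comparison, held 279 UMIs of Olfr1029, Olfr1030 and Olfr1031 in aged replicate 1 (3424 barcodes, 22.3 CPM) and 159 UMIs in aged replicate 2 (843 barcodes, 40.5 CPM), against 0 UMIs in the removed barcodes of both young libraries (689 and 868 barcodes). They were singled out because this signal lies outside the measured nuclei and above the young libraries. In the same barcodes Olfr1033 had 42.8 and 31.3 CPM in the aged and 118 and 78.3 CPM in the young libraries.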

How the results depend on the processing

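In the age contrast, where the main edgeR fit called 5 genes, 1690 were called with no filter on low counts, 848 with DESeq2, 2 at 1% mitochondrial UMIs or less and 2 with plain library totals, and 154 to 1412 with 1 library left out. With the replicate number as a block, 11 genes were called, and with the young numbers crossed 10; same-numbered deviations had a correlation of -0.196, so the numbers are not shown to pair the libraries. Between hepatocyte-like and other nuclei of the aged libraries, 7786 genes were called, against 4818 without doublet removal, 3011 without the library block and 1933 against endothelial-like nuclei alone. Of the members, 2 were called there, against 0 with DESeq2, without doublet removal, with plain totals, without the library block and against endothelial-like nuclei. Only Olfr1030 was called with at least 1000 UMIs, and likewise at 1% mitochondrial UMIs or less. The log2 difference of Olfr1033, 0.15, turned to -0.27 with plain totals, -0.405 against other nuclei low in hepatocyte transcripts and -1.753 against stellate/fibroblast-like nuclei, and lay between -0.479 and 0.817 with 1 library left out; that of Olfr1034 was -1.01 against stellate/fibroblast-like nuclei.

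Between zones, 2494 genes were called, against 1160 with DESeq2 and 79 without the library block, where 0 of the 4 members called stayed called. In all other alternatives Olfr1030, Olfr1033 and Olfr1034 kept direction, and they kept their call in those with all 4 libraries. Against equal detection, the co-detection ratios of Olfr1029 and Olfr1030, 3.45 and 3.11 in the aged libraries, were 1.84 and 1.83 weighted by depth and 1.69 and 1.74 also by zone. Those of Olfr1033 and Olfr1034 were 1.34 and 1.51 in aged and 1.06 in young replicate 1 by depth, and 1.23, 1.26, 1.02 and 1.54 (young replicate 2) by zone; those between blocks were 0.952 and 0.791, then 1.03 and 0.915. The causes of these shifts were not tested, apart from depth and zone, which those ratios take in by construction.

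With 2 libraries an age and median depths of 926 to 3754 UMIs, shares of nuclei with a UMI follow depth, and levels of Olfr1031 and of the first block in young nuclei rest on few UMIs. Free RNA, the rebuilt class names and reads shared with near-identical receptor genes limit the values outside hepatocytes and those of Olfr1029, Olfr1033 and Olfr1034.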
